A study of Mus musculus with 12 samples.

Results

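Transcripts of 34 genes of mitochondrial and peroxisomal fatty acid oxidation were examined among 25232 genes listed in RNA-seq of mouse epididymal white adipose tissue (eWAT, the fat pad beside the epididymis). The genes were picked by function, with earlier results of these data known, from the carnitine shuttle, mitochondrial beta-oxidation, electron transfer and peroxisomal oxidation. They comprised 20 genes of the mitochondrial pathway, 11 of the peroxisomal pathway and 3 whose product is found in both places or whose place is unsure. All 34 were listed and all 34 passed the filter on low values that left 15597 genes for testing, so no member was lost to it.

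The mice were of the C57BL/6 strain and formed 4 groups with 3 biological replicates each, per the labels. HFD TKO mice had the TET knockout genotype and ate a high-fat diet. HFD WT mice were wild type on the same high-fat diet. ND TKO mice had the TET knockout genotype and ate the normal diet. ND WT mice were wild type on the normal diet. The series title places the loss of TET proteins in adipocytes, while the RNA came from whole eWAT, which also holds macrophages, stromal and endothelial cells. The alleles, the promoter behind the deletion, sex, age, diet composition and length of feeding are not given in the labels. TET proteins are dioxygenases that oxidise 5-methylcytosine in DNA.

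Long-chain fatty acids enter the mitochondrion as carnitine esters, and the carnitine palmitoyltransferase at the outer membrane, inhibited by malonyl-CoA, sets the rate of entry. Inside, each turn of beta-oxidation runs through an acyl-CoA dehydrogenase, a hydratase, a hydroxyacyl-CoA dehydrogenase and a thiolase, and the dehydrogenase hands its electrons to the electron transfer flavoprotein. Peroxisomes shorten very-long-chain and branched fatty acids with a parallel set of enzymes fed by ABC transporters of the membrane, and pass the products on to mitochondria. White adipocytes mainly store and release fatty acids, and their oxidation is lower than that of brown adipocytes, liver or muscle.

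The libraries held between 20973140 and 25606629 reads, and 3 reads corresponded to between 0.117 and 0.143 CPM (reads scaled to a common library total). Among the TET genes, Tet1 averaged 2.26 ± 0.732 CPM in HFD TKO against 0.899 ± 0.0845 CPM in HFD WT, and 2.66 ± 0.389 CPM in ND TKO against 0.905 ± 0.537 CPM in ND WT (SD, n = 3 each). Tet1 was thus higher in libraries labelled TKO on both diets, and neither Tet2 (-0.47 ± 0.20 log2, adjusted p = 0.0662 on HFD and -0.06 ± 0.20 log2, adjusted p = 0.905 on ND) nor Tet3 (-0.18 ± 0.09 log2, adjusted p = 0.131 on HFD and 0.22 ± 0.09 log2, adjusted p = 0.171 on ND) passed the test between genotypes. Whole-gene counts do not show which exons remain, and the labels do not name the deleted genes, so these levels check the genotype labels only in part. ND WT replicate 3 had the lowest correlation with the rest of its group of all libraries (0.985), and HFD TKO replicate 1 the lowest within its group (0.99). Calls that changed when either was left out are given with the comparison they belong to.

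The tissue label was checked against mature adipocyte markers: none of the 16 was at or under 3 reads throughout, and they summed to levels of 53800 to 55000 CPM in HFD TKO, 29900 to 32500 CPM in HFD WT, 68600 to 74300 CPM in ND TKO and 63500 to 77600 CPM in ND WT. Of 8 markers of epididymal epithelium, 6 were at or under 3 reads in every library, and the list summed to between 0.234 and 3.9 CPM.

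Per kilobase of annotated exon, Scp2, which encodes the sterol carrier protein X thiolase and a lipid carrier, had the highest level of the members in every group: 273 CPM per kb in HFD TKO, 191 in HFD WT, 359 in ND TKO and 359 in ND WT. Etfa, Etfb and Acadl held the next 3 places in every group. Cpt1b had the lowest level, with 1.58 CPM per kb in HFD TKO, 2.24 in HFD WT, 0.795 in ND TKO and 0.89 in ND WT. Cpt1a, the liver-type isoform of the same enzyme, reached 21.7 CPM per kb in HFD TKO, 33.1 in HFD WT, 14.7 in ND TKO and 13.3 in ND WT. As counted, Cpt1a was the more abundant of the pair in each group. The gene model Gm44502 shares 81.4% of the exonic bases of Cpt1b on the same strand, so the level and rank of Cpt1b are uncertain. The members together took 0.694% to 0.751% of reads in HFD TKO, 0.557% to 0.586% in HFD WT, 0.793% to 0.826% in ND TKO and 0.717% to 0.83% in ND WT. The HFD WT libraries were the lowest of all and did not overlap with any other group.

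Promoter windows of 300 bases, from 250 bases before to 50 bases after the annotated start, were available from RefSeq (GRCm38.p6) for 28 of the 34 members. They are shown for 6 members that mark the contrasting patterns below: Cpt1a and Pdk4, which were lower in TKO on HFD, Acads, Pex11a and Ehhadh, which were higher, and Acadl, which was higher on both diets. The windows are, in the strand of the gene, Cpt1a at chr19:3323051-3323350 (plus strand), Pdk4 at chr6:5496229-5496528, Acads at chr5:115119297-115119596, Acadl at chr1:66863260-66863559, Pex11a at chr7:79743082-79743381 and Ehhadh at chr16:21787785-21788084 (all minus strand). Capitals mark the GC box GGGCGG or its reverse complement.
Cpt1a: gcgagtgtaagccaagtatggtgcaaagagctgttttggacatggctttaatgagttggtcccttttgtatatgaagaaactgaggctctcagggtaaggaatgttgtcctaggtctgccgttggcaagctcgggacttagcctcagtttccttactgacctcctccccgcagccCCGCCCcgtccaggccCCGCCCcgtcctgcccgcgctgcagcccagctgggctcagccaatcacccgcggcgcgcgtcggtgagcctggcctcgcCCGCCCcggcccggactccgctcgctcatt
Pdk4: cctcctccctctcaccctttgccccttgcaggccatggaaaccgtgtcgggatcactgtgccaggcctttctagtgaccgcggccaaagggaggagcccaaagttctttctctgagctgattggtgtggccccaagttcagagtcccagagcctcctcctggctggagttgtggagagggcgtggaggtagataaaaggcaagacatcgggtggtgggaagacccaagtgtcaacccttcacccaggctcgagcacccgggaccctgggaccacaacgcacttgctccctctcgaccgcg
Acads: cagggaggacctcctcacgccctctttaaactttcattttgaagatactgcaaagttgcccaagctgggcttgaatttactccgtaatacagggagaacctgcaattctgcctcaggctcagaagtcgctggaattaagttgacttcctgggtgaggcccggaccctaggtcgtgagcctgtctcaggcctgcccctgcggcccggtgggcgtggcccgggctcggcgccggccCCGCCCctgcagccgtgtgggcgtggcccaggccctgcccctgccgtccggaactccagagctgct
Acadl: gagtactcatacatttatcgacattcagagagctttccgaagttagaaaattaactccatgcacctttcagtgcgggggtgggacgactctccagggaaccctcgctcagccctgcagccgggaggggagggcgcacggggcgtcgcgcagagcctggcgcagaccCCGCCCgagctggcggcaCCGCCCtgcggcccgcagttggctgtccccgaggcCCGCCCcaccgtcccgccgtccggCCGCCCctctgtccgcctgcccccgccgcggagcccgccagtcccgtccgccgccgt
Pex11a: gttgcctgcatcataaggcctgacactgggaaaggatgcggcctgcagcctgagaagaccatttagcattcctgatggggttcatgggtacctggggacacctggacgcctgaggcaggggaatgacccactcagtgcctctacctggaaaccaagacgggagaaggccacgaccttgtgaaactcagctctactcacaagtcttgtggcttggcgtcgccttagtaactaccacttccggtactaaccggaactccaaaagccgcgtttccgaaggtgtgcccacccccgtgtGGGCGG
Ehhadh: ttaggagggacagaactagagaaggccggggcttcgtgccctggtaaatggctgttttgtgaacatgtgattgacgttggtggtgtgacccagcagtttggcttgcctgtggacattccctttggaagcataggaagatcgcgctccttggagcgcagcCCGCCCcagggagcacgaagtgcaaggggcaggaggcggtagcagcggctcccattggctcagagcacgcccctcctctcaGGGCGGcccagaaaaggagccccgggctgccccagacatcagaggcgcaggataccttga
A GC box on either strand was present in 22 of the 29 member windows (75.9%; Abcd3 has 2 windows), against 58.8% of 15246 windows of tested genes and 35.7% of all 32851 windows. The Pdk4 window held none, while Acadl had 4, Cpt1a 3, Ehhadh 2, and Acads and Pex11a 1 each. The nuclear receptor half-site AGGTCA was present on either strand in 5 member windows (17.2%; Cpt1a, Acadvl, Acadm, Echs1 and Scp2), against 12.8% of tested genes. In the Cpt1a and Acadm windows it lay as its reverse complement TGACCT. The direct repeat of the half-site with 1 base between (direct repeat 1), the extended half-site TCAAGGTCA, both of which contain the half-site, the E box CACGTG and the letters TATAAA were in 0 of 29 member windows, against 0.0459%, 0.289%, 9.47% and 7.86% of tested genes. Member windows had a median of 17 CpG dinucleotides, against 19 in tested genes and 7 in all windows, and 1 of 29 had fewer than 10. Hadha and Hadhb, which encode the subunits of the trifunctional protein, lie head to head on chromosome 5 with start sites 273 bases apart, and their windows share 228 bases.

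**Figure D1:**
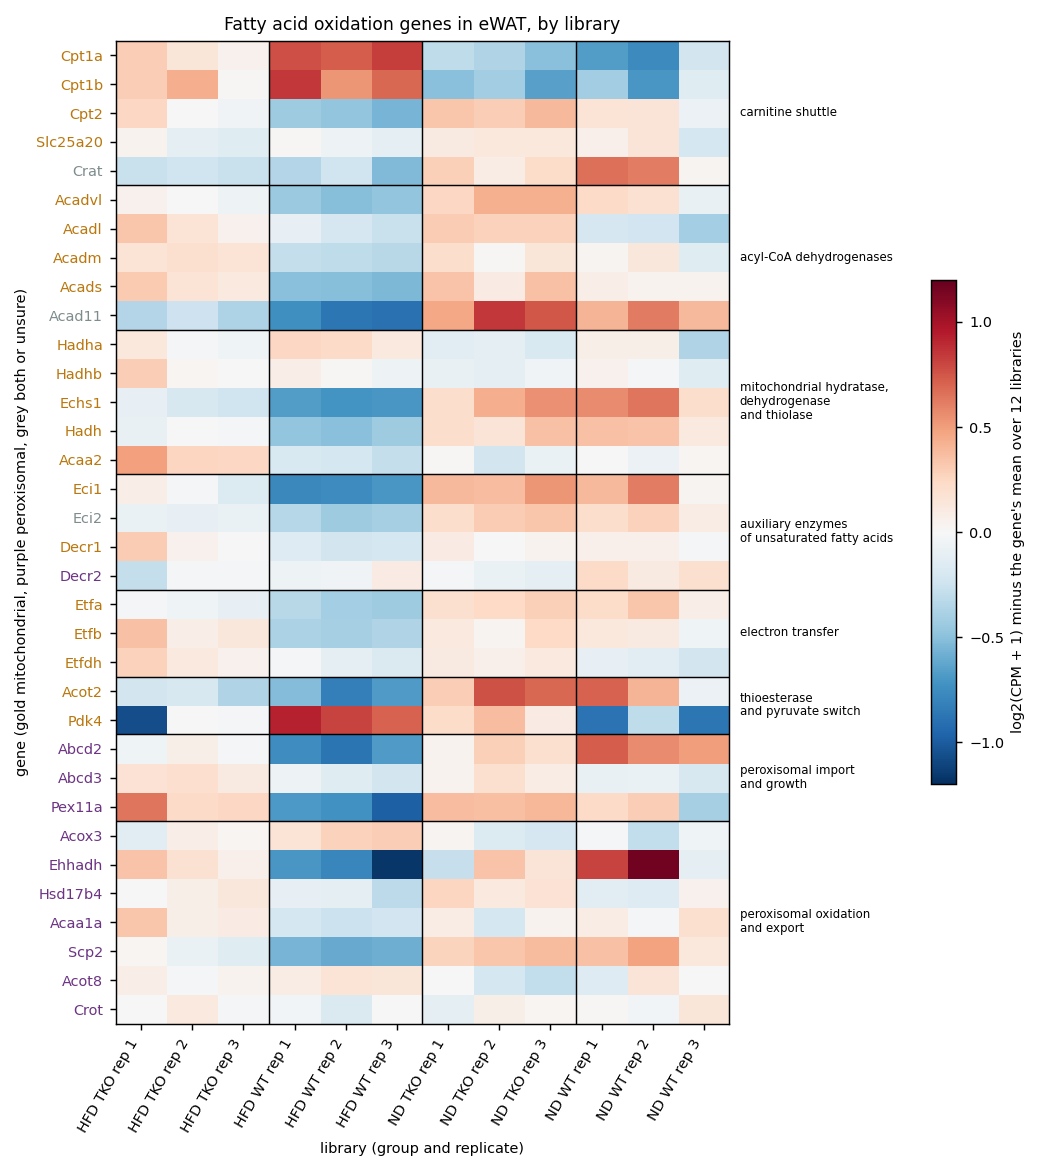
Level of each of the 34 members (rows, by role) in each of the 12 libraries (columns), as the difference in log2(CPM + 1) from the mean of that gene over all libraries. Most rows are lowest in the 3 HFD WT libraries, while Cpt1a, Cpt1b, Pdk4 and Acox3 are highest there.

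On HFD, most of the pathway was more abundant in TKO eWAT than in WT eWAT, while its entry enzyme and pyruvate switch were less abundant. Among the 34 members, 22 were higher (15.2% of all tested genes were) and 4 were lower (31.6% of all tested genes were; 46.7% changed in either direction) in HFD TKO relative to HFD WT, at an adjusted p of 0.05 in limma over all tested genes. The median log2 change was 0.35 over the members and -0.10 over all tested genes, which was -0.01 with TMM scaling. The split of all genes, 2365 higher and 4923 lower, became 3312 and 3996 with TMM scaling, and that of the members 24 and 2. Log2 changes are differences of log2(CPM + 1) with their standard error.

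Cell markers moved with this comparison. Mature adipocyte markers were higher in HFD TKO in 14 and lower in 0 of 16 genes (median 0.93), while macrophage markers were higher in 1 and lower in 14 of 16 (median -2.18), with sums of 1710 to 2030 CPM in HFD TKO and 8090 to 9720 CPM in HFD WT. Stromal progenitor markers were higher in 0 and lower in 5 of 7, T and NK cell markers in 0 and 7 of 8, B and plasma cell markers in 0 and 5 of 5, and endothelial markers in 0 and 0 of 6. Thermogenic adipocyte markers were higher in 4 and lower in 1 of 8 tested, and their sums did not overlap, with 71.8 to 99.6 CPM in HFD TKO and 59.1 to 61.1 CPM in HFD WT. Fewer cells of a type and less RNA per cell cannot be told apart in whole tissue, and the part of these shifts in the members' changes was not tested.

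In the carnitine shuttle, the enzymes on either side of the mitochondrial membranes moved in opposite directions. Cpt1a, which couples long-chain acyl groups to carnitine at the outer membrane (chromosome 19, 3322334 to 3385733), stood at 181, 163 and 153 CPM in HFD TKO and at 252, 244 and 262 CPM in HFD WT. It fell by 0.61 ± 0.12 log2 (adjusted p = 0.00151), and all 3 TKO libraries lay below all 3 WT libraries. Cpt2, which transfers the acyl group back to coenzyme A inside (chromosome 4, 107903981 to 107923610), stood at 159, 134 and 130 CPM in HFD TKO and at 99, 96 and 90.5 CPM in HFD WT. Cpt2 rose by 0.56 ± 0.09 log2 (adjusted p = 0.00034), again with no overlap.

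Cpt1b, the muscle-type isoform (chromosome 15, 89416405 to 89425863), was low, with 5.49, 6.16 and 4.34 CPM in HFD TKO and 8.48, 6.64 and 7.53 CPM in HFD WT. Its difference of -0.44 ± 0.16 log2 passed narrowly (adjusted p = 0.0432) and was lost with TMM scaling (adjusted p = 0.0952), edgeR (0.139) and DESeq2 (0.152). It was also lost without HFD TKO replicate 1 (0.0679) or 3 (0.166), HFD WT replicate 1 (0.149) or 3 (0.0936), ND TKO replicate 1 (0.055) or 3 (0.0502) or ND WT replicate 1 (0.0555). Gm44502, annotated as a predicted readthrough transcript and reaching 28.6 to 43.3 CPM, shares 81.4% of the exonic bases of Cpt1b on the same strand, so the assignment of reads between them is uncertain. Skeletal muscle markers, of which 2 of 6 passed the filter, summed to 31.8 to 34 CPM in HFD TKO and 11.2 to 16 CPM in HFD WT. On ND they summed to 18.4 to 32 CPM in TKO and 29.2 to 45.3 CPM in WT, where Cpt1b averaged 2.68 and 3 CPM. The part of muscle in the Cpt1b level was not tested. Slc25a20, the carnitine-acylcarnitine carrier, averaged 68.2 ± 4.91 CPM in HFD TKO and 69 ± 3.26 CPM in HFD WT, and Crat, which makes acetylcarnitine, 211 ± 2.19 and 196 ± 20 CPM (SD, n = 3 each). Neither passed the test (adjusted p = 0.909 and 0.533).

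All 5 acyl-CoA dehydrogenases, which take the first step on chains of different length, were higher in HFD TKO than in HFD WT, by 0.38 to 0.72 log2. Acads, for short chains (chromosome 5, 115110299 to 115119346), had 161, 145 and 140 CPM in HFD TKO and 91.1, 90.4 and 88.5 CPM in HFD WT. Its change of 0.72 ± 0.08 log2 had the smallest adjusted p of the members in this comparison (1.44e-05). Acadvl, for very long chains (chromosome 11, 70010183 to 70015411), had 235, 226 and 217 CPM in HFD TKO and 166, 158 and 163 CPM in HFD WT (0.47 ± 0.09 log2, adjusted p = 0.000926). The groups did not overlap for either gene. Dvl2 overlaps 42.9% of the exonic bases of Acadvl on the other strand but reached only 6.37 to 14.5 CPM. Acadl, for long chains (chromosome 1, 66830839 to 66863277), had 480, 428 and 395 CPM in HFD TKO and 355, 330 and 317 CPM in HFD WT (0.38 ± 0.09 log2, adjusted p = 0.00384). Acad11, a less studied member of the family (chromosome 9, 104063377 to 104127725), had 151, 163 and 150 CPM in HFD TKO and 116, 105 and 104 CPM in HFD WT (0.51 ± 0.10 log2, adjusted p = 0.00141). Acadm, for medium chains, rose by 0.48 ± 0.08 log2. In each of these 5 genes the lowest TKO library exceeded the highest WT library.

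Among the enzymes of the next steps, Echs1, Hadh and Acaa2 rose and both subunits of the trifunctional protein did not pass the test. Acaa2, the last-step thiolase (chromosome 18, 74779197 to 74806208), had 214, 182 and 181 CPM in HFD TKO and 134, 131 and 124 CPM in HFD WT (0.56 ± 0.08 log2, adjusted p = 0.000157). Echs1, the short-chain enoyl-CoA hydratase (chromosome 7, 140105710 to 140116476), had 196, 184 and 178 CPM in HFD TKO and 132, 127 and 129 CPM in HFD WT (0.52 ± 0.11 log2, adjusted p = 0.00236). Neither gene overlapped between the genotypes. Hadh, the hydroxyacyl-CoA dehydrogenase, rose by 0.43 ± 0.08 log2. Hadha averaged 256 ± 17 CPM in HFD TKO and 289 ± 14.3 CPM in HFD WT (-0.18 ± 0.11 log2, adjusted p = 0.194), and passed as lower without ND WT replicate 3 (adjusted p = 0.0388). Hadhb averaged 356 ± 42.2 CPM in HFD TKO and 331 ± 16.1 CPM in HFD WT (0.10 ± 0.09 log2, adjusted p = 0.384).

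Enzymes that prepare unsaturated chains and carry electrons were mostly higher in HFD TKO as well. Eci2, an enoyl-CoA isomerase (chromosome 13, 34977748 to 35027096), had 99.8, 98.8 and 99.9 CPM in HFD TKO and 82.8, 78.1 and 79.6 CPM in HFD WT (0.31 ± 0.06 log2, adjusted p = 0.00201). The replicates lay close together and the genotypes did not overlap. The mitochondrial isomerase Eci1 rose by 0.71 ± 0.12 log2 and the mitochondrial dienoyl-CoA reductase Decr1 by 0.31 ± 0.08 log2, whereas the peroxisomal reductase Decr2 averaged 21 ± 2.31 CPM in HFD TKO and 22.6 ± 1.48 CPM in HFD WT (adjusted p = 0.377). All 3 genes of electron transfer rose. Etfb, the beta subunit of the flavoprotein (chromosome 7, 43444083 to 43457800), had 265, 219 and 228 CPM in HFD TKO and 158, 156 and 160 CPM in HFD WT (0.57 ± 0.09 log2, adjusted p = 0.000171). Another gene model on its strand, Gm45233, shares 53% of its exonic bases. Etfa, the alpha subunit, rose by 0.33 ± 0.07 log2, and Etfdh, which passes the electrons to ubiquinone, by 0.25 ± 0.07 log2, a call lost without HFD WT replicate 3 (adjusted p = 0.0619).

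Pdk4, the kinase that inhibits pyruvate dehydrogenase and so spares glucose when fatty acids are burned (chromosome 6, 5483351 to 5496309), went against the enzymes of the spiral. It had 40.8, 86 and 85.5 CPM in HFD TKO and 164, 152 and 142 CPM in HFD WT. All TKO libraries were lower than all WT libraries, and HFD TKO replicate 1 stood well below the rest of its group. Pdk4 fell by 1.17 ± 0.25 log2 (adjusted p = 0.00206), and without that replicate the difference was -0.82 log2 (adjusted p = 0.00161). Acot2, a thioesterase of the mitochondrial matrix, averaged 13.7 ± 0.889 CPM in HFD TKO and 10.1 ± 1.16 CPM in HFD WT and missed the threshold (0.41 ± 0.18 log2, adjusted p = 0.0794), although the groups did not overlap. It passed with TMM scaling (0.52 log2, adjusted p = 0.0283), edgeR (adjusted p = 0.0232) and DESeq2 (adjusted p = 0.0117), and without ND WT replicate 1 (0.0475) or 3 (0.0245).

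All 3 genes of peroxisomal import and growth were higher in HFD TKO than in HFD WT. Pex11a, which drives elongation and division of peroxisomes (chromosome 7, 79735957 to 79743131), had 90, 67.4 and 68.2 CPM in HFD TKO and 35.1, 34.2 and 28.5 CPM in HFD WT. Its 1.17 ± 0.17 log2 (adjusted p = 0.000138) was the highest change among the members. Abcd2, an ABC transporter that brings very-long-chain acyl-CoA into peroxisomes (chromosome 15, 91145871 to 91191799), had 554, 603 and 565 CPM in HFD TKO and 341, 312 and 357 CPM in HFD WT (0.77 ± 0.09 log2, adjusted p = 3.12e-05). Abcd3, which imports long-chain and branched substrates (chromosome 3, 121758774 to 121815302), had 150, 152 and 143 CPM in HFD TKO and 127, 120 and 113 CPM in HFD WT (0.30 ± 0.07 log2, adjusted p = 0.00292). No TKO library overlapped with WT for these transporters.

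Inside the peroxisome, 4 of 7 genes of oxidation and export were higher in HFD TKO, 1 was lower and 2 did not pass. Ehhadh, the bifunctional hydratase and dehydrogenase of straight chains (chromosome 16, 21761287 to 21787807), had 65.6, 58.7 and 53.9 CPM in HFD TKO and 31.5, 29.6 and 22.4 CPM in HFD WT (1.08 ± 0.27 log2, adjusted p = 0.00627). Its counterpart Hsd17b4 rose by 0.25 ± 0.08 log2 (adjusted p = 0.0295), a call lost without HFD TKO replicate 2 (adjusted p = 0.0639), HFD TKO replicate 3 (0.101) or HFD WT replicate 3 (0.134). The thiolases Acaa1a and Scp2 rose by 0.40 ± 0.10 and 0.52 ± 0.10 log2. Acaa1a has a near-identical copy, Acaa1b, and reads may be split between them. Acaa1b was higher in TKO on HFD (0.47 ± 0.09 log2, adjusted p = 0.00147) and also on ND (0.41 ± 0.09 log2, adjusted p = 0.0262), where Acaa1a was at -0.12 log2 (adjusted p = 0.517). Acox3, an acyl-CoA oxidase for branched chains (chromosome 5, 35583040 to 35615352), had 52.9, 61.3 and 58.8 CPM in HFD TKO and 64.8, 70.5 and 71.3 CPM in HFD WT. Its -0.25 ± 0.09 log2 passed by a small margin (adjusted p = 0.0438) and did not pass with TMM scaling (adjusted p = 0.225), edgeR (0.31) or DESeq2 (0.329), nor without HFD TKO replicate 1 (0.142) or 3 (0.0755) or HFD WT replicate 1 (0.0503), 2 (0.116) or 3 (0.127). The thioesterase Acot8 (adjusted p = 0.51) and the carnitine octanoyltransferase Crot (adjusted p = 0.33), which release chain-shortened products, did not pass. Crot passed with TMM scaling (0.21 log2, adjusted p = 0.0292).

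**Figure D2:**
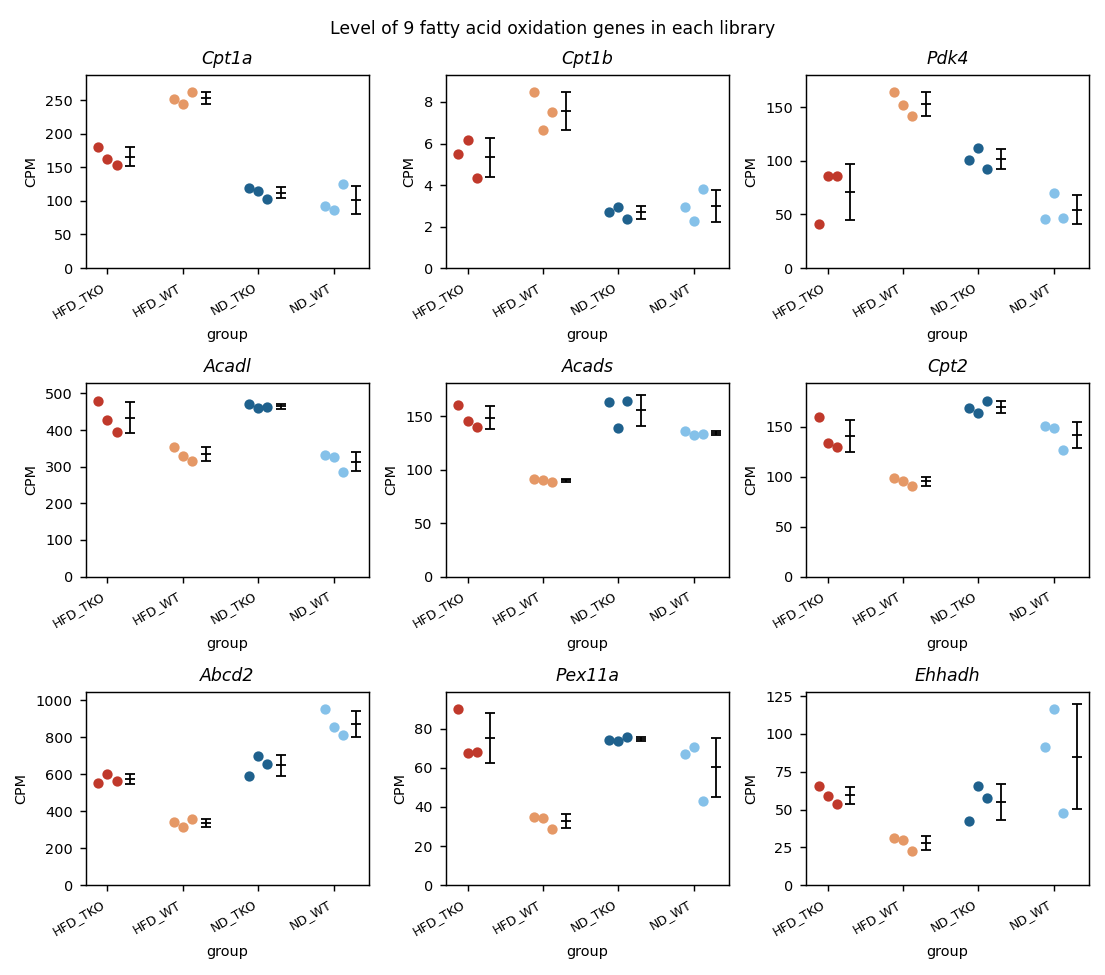
Level in CPM of selected members in each library, by group from left to right HFD TKO, HFD WT, ND TKO and ND WT, with a point for each of the 3 libraries and the group mean with its SD beside them. Pex11a and Ehhadh are lowest in HFD WT, whereas Cpt1a and Pdk4 are highest there.

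On the normal diet few members were called between the genotypes, at shares near those of all tested genes. In ND TKO relative to ND WT, 1 of 34 members was higher (2.16% of tested genes) and 1 was lower (3.54% of tested genes; 5.7% in either direction), with a median log2 change of 0.05 against -0.06 over all tested genes. The split of all genes, 337 higher and 552 lower, became 525 and 396 with TMM scaling, and that of the members 3 and 1. Mature adipocyte markers were higher in 1 and lower in 4 of 16 genes (median -0.06), and macrophage markers in 0 and 0 of 16 (median -0.32). Acadl had 471, 460 and 462 CPM in ND TKO and 331, 325 and 286 CPM in ND WT, a rise of 0.57 ± 0.09 log2 (adjusted p = 0.0035). It was the 1 member called higher on both diets, and its changes on the diets were not called different (interaction -0.19 ± 0.12 log2, adjusted p = 0.278). Abcd2 went the other way than on HFD, with 590, 700 and 657 CPM in ND TKO and 952, 853 and 813 CPM in ND WT. Abcd2 was lower by -0.43 ± 0.09 log2 (adjusted p = 0.0188), a call lost without ND TKO replicate 1 (adjusted p = 0.0728), ND TKO replicate 3 (0.0598) or ND WT replicate 1 (0.0861) and in a fit of these groups alone (0.107).

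Pdk4 stood at 101, 112 and 92.5 CPM in ND TKO and at 46.1, 69.8 and 46.8 CPM in ND WT. The groups did not overlap, and the difference of 0.92 ± 0.25 log2 lay at the threshold (adjusted p = 0.0515). It passed with TMM scaling (adjusted p = 0.029), edgeR (0.0359) and DESeq2 (0.00107), and without HFD TKO replicate 1 (0.00396) or ND WT replicate 2 (0.0409). Abcd3, with 136, 151 and 141 CPM in ND TKO and 124, 125 and 116 CPM in ND WT, was likewise just short of a call (0.23 ± 0.07 log2, adjusted p = 0.0723) and passed with TMM scaling (adjusted p = 0.0389).

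ND WT replicate 3 differed from its group in several members, and calls on the normal diet depended on it. Ehhadh had 42.3, 65.7 and 57.5 CPM in ND TKO and 91.3, 116 and 47.6 CPM in ND WT (-0.55 ± 0.27 log2, adjusted p = 0.256), and without that replicate the difference was -0.91 log2 (adjusted p = 0.0112). Cpt1a had 119, 114 and 103 CPM in ND TKO and 92.1, 86.4 and 126 CPM in ND WT (0.16 ± 0.12 log2, adjusted p = 0.475), and without it 0.33 log2 (adjusted p = 0.0315). Crat changed to -0.44 log2 (adjusted p = 0.00993) and Hsd17b4 to 0.33 log2 (adjusted p = 0.0257). Etfdh passed as higher without HFD TKO replicate 1 (0.24 log2, adjusted p = 0.0387). With ND WT replicate 3 and HFD TKO replicate 1 both left out, a check added after the values were seen, 5 members were higher and 4 lower in ND TKO. Calls over all tested genes rose in that fit too, to 1209 higher and 1563 lower, against 337 and 552 with all 12 libraries.

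Other members with every library given on HFD did not pass on the normal diet. Cpt2 had 169, 164 and 176 CPM in ND TKO and 150, 149 and 127 CPM in ND WT (0.26 ± 0.09 log2, adjusted p = 0.117). Acadvl had 269, 305 and 304 CPM in ND TKO and 266, 257 and 212 CPM in ND WT (adjusted p = 0.107). Acads had 164, 139 and 164 CPM in ND TKO and 136, 133 and 133 CPM in ND WT (adjusted p = 0.134). For these 3 genes the lowest TKO library exceeded the highest WT library, by a small margin for Acadvl. The same held for Pex11a, with 74.4, 73.8 and 75.7 CPM in ND TKO and 67.3, 70.5 and 43.1 CPM in ND WT (adjusted p = 0.266). The share of all tested genes that separate in this way was not counted, so no genotype effect is drawn from it. Etfb had 225, 212 and 245 CPM in ND TKO and 226, 223 and 200 CPM in ND WT (adjusted p = 0.675). Acox3 had 59.2, 51.6 and 50.2 CPM in ND TKO and 56.8, 47 and 55.7 CPM in ND WT (adjusted p = 0.951). Cpt1b had 2.72, 2.97 and 2.36 CPM in ND TKO and 2.96, 2.26 and 3.79 CPM in ND WT (adjusted p = 0.765). The genotypes overlapped for the last 3.

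**Figure D3:**
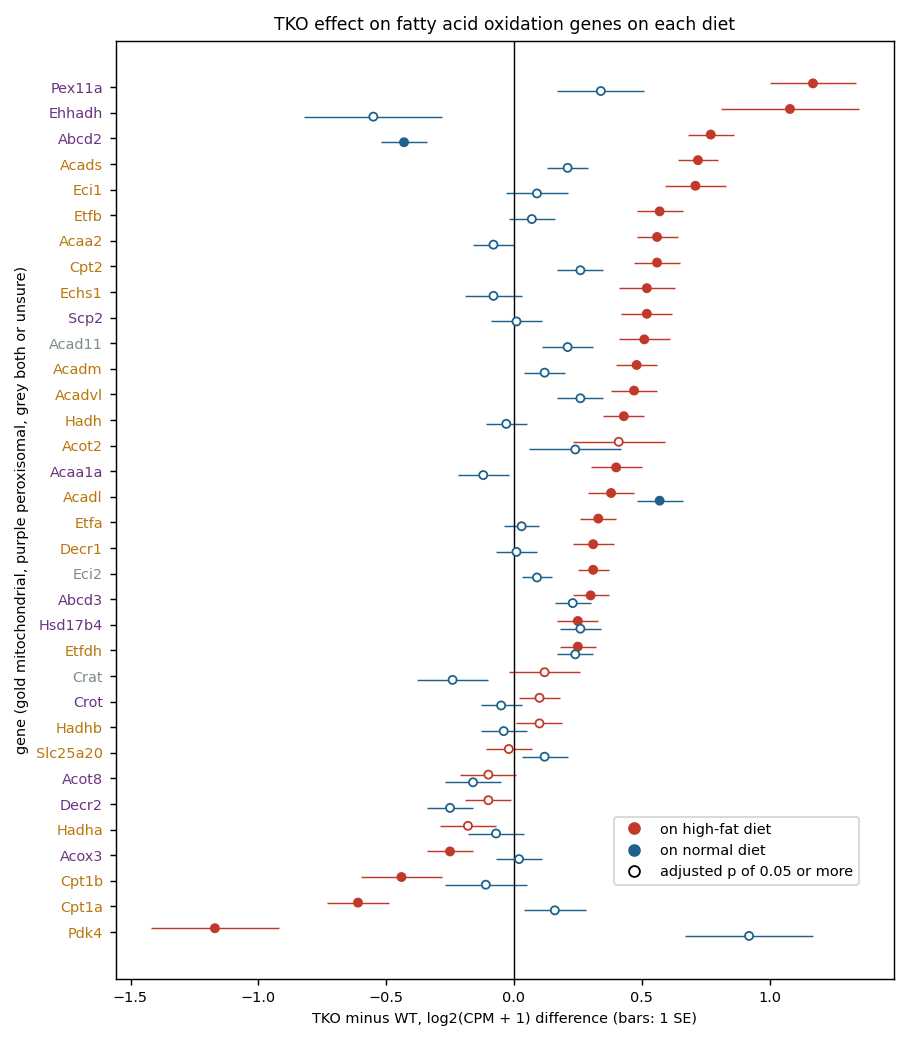
Difference between TKO and WT in log2(CPM + 1) for each member on HFD and on ND, with bars of 1 standard error. On HFD most members lie above 0 and Pdk4 lies at -1.17, whereas on ND most lie near 0 and Pdk4 lies at 0.92.

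The genotype effect differed between the diets for 15 members. In the genotype by diet interaction, the TKO effect on HFD minus that on ND, 13 of 34 members were positive (9.94% of tested genes) and 2 were negative (18.8% of tested genes; 28.7% in either direction), with a median of 0.26 against -0.06 over all tested genes. Mature adipocyte markers were positive in 10 and negative in 0 of 16 (median 0.92), and macrophage markers positive in 1 and negative in 13 of 16 (median -2.03). The part of these shifts was not tested. Abcd2 had the smallest adjusted p (1.19 ± 0.13 log2, adjusted p = 5.67e-05), and it was the 1 member called in opposite directions on the diets. Pdk4 (-2.09 ± 0.35 log2, adjusted p = 0.000967) and Cpt1a (-0.77 ± 0.17 log2, adjusted p = 0.00587) were negative, although their effects on ND alone were not called. Acaa2 (0.64 ± 0.12 log2, adjusted p = 0.00166) and Acads (0.51 ± 0.11 log2, adjusted p = 0.00455) were positive, as was Ehhadh, whose 1.62 ± 0.38 log2 was the highest among the members (adjusted p = 0.00779). The calls of Acadm (adjusted p = 0.034) and Etfa (adjusted p = 0.0438) did not hold with TMM scaling (adjusted p = 0.0511 and 0.0553). Without ND WT replicate 3, 17 members were positive, with Cpt2 (adjusted p = 0.0304), Crat (0.00445), Acadvl (0.0304) and Eci2 (0.0273) added, and without HFD TKO replicate 1 Etfa did not pass (0.0681).

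Most of the pathway was lower on the high-fat diet in WT eWAT. In HFD WT relative to ND WT, 20 of 34 members were lower (20.3% of tested genes) and 5 were higher (37.8% of tested genes; 58.1% in either direction), with a median log2 change of -0.32 against 0.13 over all tested genes, which was 0.01 with TMM scaling. The split of all genes, 5892 higher and 3173 lower, became 4669 and 4245 with TMM scaling, and that of the members 4 higher and 23 lower. The mature adipocyte list moved alongside, with 1 higher and 15 lower of 16 (median -1.44), and the macrophage list the other way, with 14 higher and 0 lower of 16 (median 2.52). The part of these shifts was not tested.

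Abcd2 fell to 341, 312 and 357 CPM in HFD WT, against 952, 853 and 813 CPM in ND WT (-1.37 ± 0.09 log2, adjusted p = 1.84e-07). Acad11 fell to 116, 105 and 104 CPM in HFD WT, against 256, 299 and 253 CPM in ND WT (-1.31 ± 0.10 log2, adjusted p = 6.5e-07). Echs1 fell to 132, 127 and 129 CPM in HFD WT, against 312, 328 and 244 CPM in ND WT (-1.17 ± 0.11 log2, adjusted p = 3.37e-06). The diets did not overlap in any of these 3 genes. Ehhadh (-1.50 ± 0.27 log2), Eci1 (-1.09 ± 0.12), Acot2 (-1.02 ± 0.18), Scp2 (-0.90 ± 0.10), Pex11a (-0.84 ± 0.17) and Crat (-0.81 ± 0.14) also fell. The other 11 that fell changed by -0.21 to -0.74 log2. Among them, Decr1 (-0.23 ± 0.08 log2, adjusted p = 0.0273) missed the threshold without HFD WT replicate 2 (0.0783) or 3 (0.0723) or ND WT replicate 1 (0.0777) or 2 (0.0692).

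Against this fall, Cpt1a rose to 252, 244 and 262 CPM in HFD WT, against 92.1, 86.4 and 126 CPM in ND WT (1.33 ± 0.12 log2, adjusted p = 2.53e-06). Pdk4 rose by 1.50 ± 0.25 log2 (adjusted p = 0.000255), Cpt1b by 1.11 ± 0.16 log2 (adjusted p = 0.000109) and Acox3 by 0.37 ± 0.09 log2 (adjusted p = 0.00498). Acox3 did not pass with edgeR (0.21 log2, adjusted p = 0.0678) or DESeq2 (0.22 log2, adjusted p = 0.0543). These 4 are the members that were lower in TKO on HFD. HFD WT is shared by both comparisons, so a high value there enters both. Hadha rose by 0.27 ± 0.11 log2 (adjusted p = 0.0459), which did not pass with TMM scaling (adjusted p = 0.394) or without any 1 of the HFD WT libraries (0.0518 to 0.124) or ND WT replicate 3 (0.151).

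In TKO eWAT, 14 members were called between the diets. In HFD TKO relative to ND TKO, 11 of 34 members were lower (5.9% of tested genes) and 3 were higher (16.2% of tested genes; 22.1% in either direction), with a median of -0.05 against 0.07 over all tested genes. The split of all genes, 2525 higher and 921 lower, became 1399 and 1472 with TMM scaling. Mature adipocyte markers were higher in 1 and lower in 11 of 16 (median -0.58), and macrophage markers higher in 9 and lower in 0 of 16 (median 0.91). The part of these shifts was not tested. Acad11 fell to 151, 163 and 150 CPM in HFD TKO, against 267, 350 and 325 CPM in ND TKO (-1.01 ± 0.10 log2, adjusted p = 0.000534). Eci2 fell to 99.8, 98.8 and 99.9 CPM in HFD TKO, against 122, 130 and 133 CPM in ND TKO (-0.37 ± 0.06 log2, adjusted p = 0.00343). Echs1 fell to 196, 184 and 178 CPM in HFD TKO, against 244, 285 and 308 CPM in ND TKO (-0.57 ± 0.11 log2, adjusted p = 0.00503). No HFD library of these 3 genes reached the ND range. Acaa2 rose to 214, 182 and 181 CPM in HFD TKO, against 153, 130 and 143 CPM in ND TKO (0.43 ± 0.08 log2, adjusted p = 0.00462), while in WT it fell by a small amount (-0.21 ± 0.08 log2, adjusted p = 0.0438), a call lost without any 1 of the 6 WT libraries (adjusted p = 0.0517 to 0.132). Cpt1a (0.55 ± 0.12 log2, adjusted p = 0.00892) and Cpt1b (0.77 ± 0.16 log2, adjusted p = 0.00704) rose in TKO as in WT. The calls of Cpt2 (adjusted p = 0.0498), Crat (0.0377) and Hadh (0.0284) lay near the threshold. Without ND TKO replicate 3, 4 members were lower, and Cpt2 (adjusted p = 0.151), Crat (0.106), Acadvl (0.0559), Hadh (0.117), Eci1 (0.0791), Etfa (0.0605) and Scp2 (0.0599) no longer passed. Without HFD TKO replicate 3, 5 were lower, and Acadvl alone of those 7 still passed. Crat (0.0827) and Hadh (0.0758) were also lost without HFD TKO replicate 1.

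**Figure D4:**
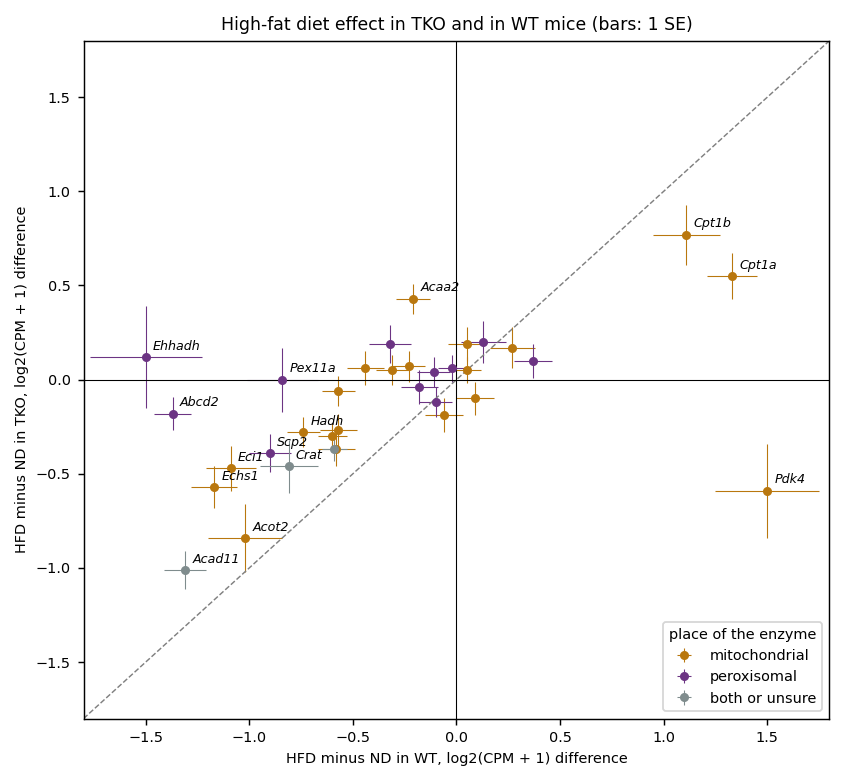
Difference between HFD and ND in log2(CPM + 1) for each member in TKO (vertical axis) and in WT (horizontal axis). Most members lie left of 0 in WT and nearer to 0 in TKO, with Cpt1a and Cpt1b positive in both.

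Across the 4 comparisons of genotype on a diet and diet in a genotype, the members fell into a few patterns. A group of 9 (Cpt2, Acadvl, Acad11, Echs1, Hadh, Eci1, Eci2, Etfa and Scp2) was higher in TKO on HFD and lower on HFD in both genotypes. Of these, Cpt2, Acadvl, Hadh, Eci1, Etfa and Scp2 lost the diet call in TKO without ND TKO replicate 3, as given above. A further 7 (Acadm, Acads, Decr1, Etfb, Pex11a, Ehhadh and Acaa1a) were higher in TKO on HFD and lower on HFD in WT, with no call in TKO. Etfdh, Abcd3 and Hsd17b4 were called as higher in TKO on HFD and in no other of the 4. With TMM scaling, Hsd17b4 was also lower with HFD in WT (-0.25 log2, adjusted p = 0.0485) and Abcd3 higher in TKO on ND (adjusted p = 0.0389). Etfdh passed as higher in TKO on ND with DESeq2 (adjusted p = 0.0454). Slc25a20, Hadhb, Decr2, Acot8 and Crot passed in none of the 4, although with TMM scaling Crot and Decr2 were lower with HFD in WT (adjusted p = 0.0101 and 0.00478). These comparisons share libraries, so the patterns are descriptions.

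Set against lean WT eWAT, the HFD TKO libraries differed in both directions. In HFD TKO relative to ND WT, 6 of 34 members were higher (20% of tested genes) and 11 were lower (15% of tested genes; 35.1% in either direction), with a median of 0.06 against 0.02 over all tested genes. Mature adipocyte markers were higher in 0 and lower in 9 of 16 (median -0.46), macrophage markers higher in 9 and lower in 0 of 16 (median 0.57), and mesothelium markers higher in 0 and lower in 4 of 5 (median -1.47). The part of these shifts was not tested. Acad11 (-0.79 ± 0.10 log2, adjusted p = 0.000299), Abcd2 (-0.60 ± 0.09 log2, adjusted p = 0.000714) and Echs1 (-0.65 ± 0.11 log2, adjusted p = 0.0014) were lower. Cpt1a was higher (0.72 ± 0.12 log2, adjusted p = 0.00136), as were Cpt1b (0.67 ± 0.16), Acadl (0.46 ± 0.09), Acaa2 (0.35 ± 0.08), Etfdh (0.30 ± 0.07) and Abcd3 (0.28 ± 0.07 log2). Acads had 161, 145 and 140 CPM in HFD TKO and 136, 133 and 133 CPM in ND WT and did not pass (adjusted p = 0.165). Without ND WT replicate 1, 7 members were lower, and Hadh (adjusted p = 0.0516), Eci1 (0.0889), Decr2 (0.105) and Acot2 (0.097) no longer passed. Decr2 was also lost without HFD TKO replicate 1 (0.108) or ND WT replicate 3 (0.0519), Eci1 without HFD TKO replicate 2 (0.0585), and Eci1, Etfa and Acot2 without HFD TKO replicate 3 or ND WT replicate 2 (0.0523 to 0.119). Ehhadh, at -0.42 ± 0.27 log2 (adjusted p = 0.244), passed as lower without ND WT replicate 3 (-0.79 log2, adjusted p = 0.00675), as did Acadvl (-0.21 log2, adjusted p = 0.039). Pdk4, at 0.33 ± 0.25 log2 (adjusted p = 0.326), passed as higher without HFD TKO replicate 1 (0.68 log2, adjusted p = 0.0108).

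Mitochondrial and peroxisomal members were compared side by side. In TKO relative to WT on HFD, 13 of 20 mitochondrial members were higher and 3 lower (median 0.39), and 7 of 11 peroxisomal members were higher and 1 lower (median 0.30), beside 15.2% higher and 31.6% lower of all tested genes. On ND the counts were 1 and 0 of 20 (median 0.10) and 0 and 1 of 11 (median -0.05), beside 2.16% higher and 3.54% lower. With HFD in WT, 4 mitochondrial members were higher and 12 lower (median -0.27), and 1 peroxisomal member was higher and 5 lower (median -0.18), beside 37.8% higher and 20.3% lower. In TKO, the diet gave 3 higher and 7 lower of the mitochondrial members (median -0.08), beside 16.2% higher and 5.9% lower of all tested genes. Of the peroxisomal members, 0 were higher and 1, Scp2, was lower (median 0.04), a share near that of all tested genes lower. The interaction counted 8 positive and 2 negative of 20, and 5 positive and 0 negative of 11, beside 9.94% positive and 18.8% negative. No test between these gene groups was made, and their order depends on the measure. Between the genotypes on HFD the median change was larger on the mitochondrial side. The mean deviation by library lay lower in HFD WT on the peroxisomal side (-0.27 to -0.33) than on the mitochondrial side (-0.12 to -0.20). In HFD TKO it was 0.05 to 0.10 and -0.02 to 0.11.

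The summed level of the mitochondrial members was 4457, 4134 and 4012 CPM in HFD TKO, 3599, 3467 and 3419 CPM in HFD WT, 4407, 4321 and 4539 CPM in ND TKO and 4231, 4293 and 3705 CPM in ND WT. That of the peroxisomal members was 2589, 2551 and 2473 CPM in HFD TKO, 1862, 1795 and 1791 CPM in HFD WT, 2821, 2953 and 2971 CPM in ND TKO and 3174, 3192 and 2841 CPM in ND WT. HFD WT was the lowest group on both sums without overlap, and ND WT replicate 3 was the lowest ND library on the mitochondrial sum. Sums are weighted to abundant genes, among them Scp2 and Abcd2 on the peroxisomal side.

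**Figure D5:**
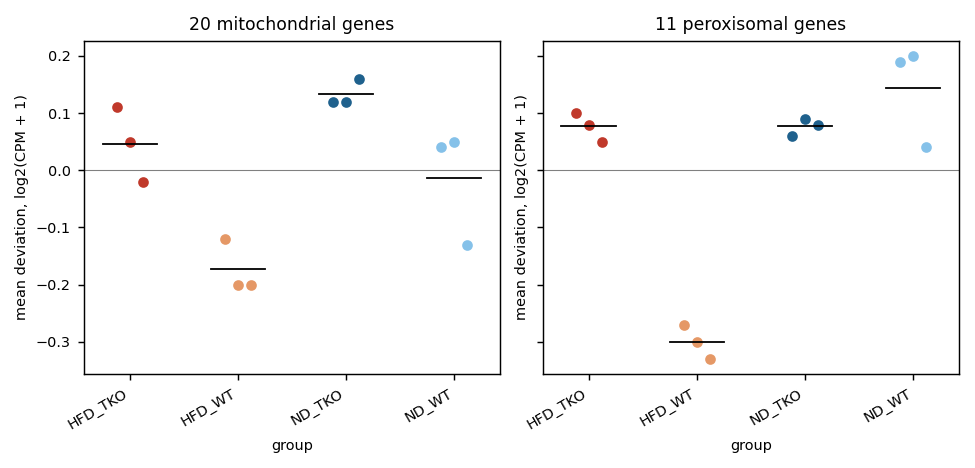
Mean deviation of the 20 mitochondrial and the 11 peroxisomal members in each library, in log2(CPM + 1) from the mean of each gene over all libraries. The HFD WT libraries lie between -0.12 and -0.20 for mitochondrial members and between -0.27 and -0.33 for peroxisomal members, below the other groups, apart from ND WT replicate 3 at -0.13 on the mitochondrial side.

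Other genes of the pathway were counted from lists chosen by function. In TKO relative to WT on HFD, 6 of 17 other mitochondrial genes were higher and 2 lower, 10 of 27 tested other peroxisomal genes were higher and 2 lower, and 10 of 15 peroxins, which build peroxisomes, were higher and 0 lower. Over all tested genes, 15.2% were higher and 31.6% lower there. With HFD in WT the counts were 1 higher and 11 lower, 2 and 14, and 0 and 10, beside 37.8% higher and 20.3% lower. The peroxins Pex5, the receptor that imports enzymes into the matrix, and Pex13 and Pex14, its docking partners, rose in TKO on HFD by 0.53 ± 0.09, 0.48 ± 0.08 and 0.50 ± 0.10 log2. On ND, the peroxin with the smallest adjusted p between the genotypes was Pex6 (-0.37 ± 0.11 log2, adjusted p = 0.0748).

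Among the other peroxisomal genes, Lonp2, a protease, and Pxmp4, a membrane protein, each rose in TKO on HFD by 0.65 ± 0.06 log2. Among the other mitochondrial genes, Hsd17b10, a hydroxyacyl-CoA dehydrogenase, rose by 0.75 ± 0.14 log2 and Etfrf1, a regulator of the flavoprotein, by 0.69 ± 0.09 log2.

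Acacb, the acetyl-CoA carboxylase whose malonyl-CoA restrains carnitine palmitoyltransferase, had 38.4, 35.3 and 29.6 CPM in HFD TKO and 37, 39.9 and 32.7 CPM in HFD WT. On ND it had 71.4, 115 and 104 CPM in ND TKO and 400, 488 and 184 CPM in ND WT. The genotypes overlapped on HFD (-0.09 ± 0.29 log2, adjusted p = 0.838) and were apart on ND (-1.79 ± 0.29 log2, adjusted p = 0.00463), with an interaction of 1.70 ± 0.41 log2 (adjusted p = 0.00942). With HFD in WT it was lower (-3.14 ± 0.29 log2, adjusted p = 2.78e-06). Acsl1, which activates long-chain fatty acids, rose in TKO on ND by 1.01 ± 0.16 log2 (adjusted p = 0.00382).

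Regulators of the pathway were higher in TKO on HFD in 8 of 18 and lower in 2, beside 15.2% and 31.6% of all tested genes. With HFD in WT they were higher in 2 and lower in 10, beside 37.8% and 20.3%. Ppara, the nuclear receptor that drives these genes in liver, was low, with 7.58, 17.6 and 13.8 CPM in HFD TKO, 7.93, 7.79 and 7.23 CPM in HFD WT, 12.5, 13.5 and 12.8 CPM in ND TKO and 21.8, 20.5 and 12.7 CPM in ND WT. On HFD, HFD TKO replicate 1 lay within the WT range and the other two above it (0.62 ± 0.25 log2, adjusted p = 0.0577). Ppara fell with HFD in WT (-1.13 ± 0.25 log2, adjusted p = 0.00207) and had a positive interaction (1.06 ± 0.35 log2, adjusted p = 0.0401). Ppargc1a, a coactivator of oxidative genes, had 5.3, 9.37 and 6.58 CPM in HFD TKO and 3.01, 3.81 and 4.28 CPM in HFD WT (0.76 ± 0.27 log2, adjusted p = 0.0384), without overlap. Lpin1, a phosphatidate phosphatase that also acts as a coactivator, rose in TKO on HFD (1.12 ± 0.09 log2, adjusted p = 1.18e-06) and on ND (0.53 ± 0.09 log2, adjusted p = 0.00441). Rxra and Pparg, nuclear receptors that pair in adipocytes, rose in TKO on HFD by 0.53 ± 0.07 and 0.46 ± 0.11 log2. Pparg and Lpin1 are themselves abundant in adipocytes, whose markers were higher in HFD TKO as given above. Pparg is itself among the mature adipocyte markers counted there, and Ppargc1a among the thermogenic adipocyte markers. The part of cell composition in the changes of the regulators was not tested.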

How the data were processed

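RNA-seq of whole eWAT gave 12 libraries in 4 groups of 3. The deposited table held CPM per gene and library, named raw CPM per the file headers. The submitters' processing notes list the tools STAR 2.7.3a, featureCounts 2.0.0 and DESeq2 beside the build mm10 and give no roles; strand use and the treatment of multi-mapped reads are not given in the sources used here. After an offset of 0.01 read was subtracted, 100% of the values came out as whole reads within 0.05 read, so count tests could be run as alternatives. Limits from 3 reads cover counting error only. No pair of replicates agreed within sampling noise.

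The test in the report was limma 3.58.1 (R 4.3.3) on log2(CPM + 1) with the trend option, which understates the change of low genes. Genes with at least 0.5 CPM in at least 3 libraries were tested. A single fit of group means used all 12 libraries (8 residual degrees of freedom). Benjamini-Hochberg adjustment ran over all tested genes, with calls at 0.05. The fits were tested on simulated data. The labels call the replicates biological but do not say whether mice were pooled or litters shared.

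Alternatives were TMM scaling, edgeR 4.0.16 and DESeq2 1.42.0 on the recovered reads, pseudocounts of 0.5 and 5, no filter, a filter of 2 CPM, the replicate number as a block, the compared groups alone, leaving out each library, and, added after the data were seen, leaving out 2 libraries together. The 3 genes without a symbol held at most 0.0679% of reads and were left out.

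The members and lists were chosen with earlier results of these data known, by function. Values in every library are given for Cpt1a, Cpt1b, Cpt2, Pdk4, Acadl, Acads, Acadvl, Etfb, Ehhadh, Acox3, Pex11a and Abcd2 and for the 4 members with the smallest adjusted p in a comparison; genes of other lists are named when among the 3 smallest of their list, plus Ppara, Ppargc1a and Acacb. Some genes that this rule takes in are not reported here. Other genes, such as overlapping ones, were named after their values were seen. Gene coordinates and exon lengths are from GENCODE M21 (GRCm38, the same assembly as mm10), and exon length counts all annotated exons of a gene, so levels per kilobase are approximate. Promoter windows are from RefSeq on GRCm38.p6.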

Additional observations from a re-analysis of the deposited data

Results flagged for a closer look

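The effect of the TKO genotype differed between the diets in 15 of the 34 members, by the interaction term of the limma fit adjusted over all tested genes (28.7% of tested genes passed in either direction). Values are the log2 TKO effect on HFD minus that on ND. Abcd2 (1.19) was called higher in TKO on HFD (0.77) and lower on ND (-0.43, adjusted p = 0.0188). For the other 14 the effect on ND was not called. It was 1.08 on HFD and -0.55 on ND (adjusted p = 0.256) for Ehhadh (1.62), -1.17 and 0.92 (adjusted p = 0.0515) for Pdk4 (-2.09), and -0.61 and 0.16 (adjusted p = 0.475) for Cpt1a (-0.77). Pdk4 was at -1.74 without HFD TKO replicate 1 (adjusted p = 0.000213).

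The remaining 11 members were called higher in TKO on HFD, and their effects on ND lay between -0.12 and 0.34, with Acaa2 (-0.08), Echs1 (-0.08), Hadh (-0.03) and Acaa1a (-0.12) below 0. The differences were 0.84 for Pex11a, 0.64 for Acaa2, 0.62 for Eci1, 0.60 for Echs1, 0.52 for Acaa1a, 0.51 for Acads, 0.51 for Scp2, 0.50 for Etfb, 0.46 for Hadh, 0.36 for Acadm and 0.30 for Etfa. Pex11a missed the threshold without HFD WT replicate 3 (0.75, adjusted p = 0.0536) or ND WT replicate 1 (0.74, adjusted p = 0.0531), and Acadm and Etfa missed it in most fits that left out a library.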

How the results depend on the processing

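Over up to 22 alternatives a result, 4243 of the single-member results kept their side of the threshold. Another 139 dropped below it, 72 passed it and 0 reversed, meaning a change of direction with a call in either fit. Changes of direction without a call in either fit are counted among the 4243. For TKO against WT on HFD, 2 members were lower with TMM scaling, edgeR, DESeq2, no filter and the replicate block (4 in the report). The median change there was 0.50 (mitochondrial) and 0.42 (peroxisomal) with TMM scaling, and 0.54 and 0.44 with edgeR and DESeq2. On ND, 3 members were higher with TMM scaling and edgeR, 6 with DESeq2, 2 with the filter of 2 CPM, 2 with the replicate block and 2 with the compared groups alone, where 0 were lower (1 in the report, Abcd2). The ND medians were 0.17 (mitochondrial) and 0.02 (peroxisomal) with TMM scaling, and 0.01 (peroxisomal) with edgeR and DESeq2. For HFD against ND in TKO the medians were -0.18 and -0.06 with TMM scaling, -0.16 and -0.05 with edgeR, and -0.16 and -0.04 with DESeq2. In WT they were -0.41 and -0.32, -0.44 and -0.35, and -0.43 and -0.34, and 3 members were higher with edgeR and with DESeq2. Interaction medians were 0.35 and 0.23 with edgeR and DESeq2. In HFD TKO against ND WT, 5 members were lower with the compared groups alone, a fit with fewer libraries. Without ND WT replicate 3 and HFD TKO replicate 1, 5 members were higher and 4 lower on ND, and the medians were 0.02 (mitochondrial, TKO against WT on ND), -0.15 (mitochondrial, HFD against ND in TKO), 0.23 (peroxisomal, interaction) and -0.02 (mitochondrial, HFD TKO against ND WT). Leaving out each library in turn, members lower in TKO on HFD numbered 2 to 5, members higher on ND 1 to 3 and lower 0 to 3, and members lower with HFD in TKO 4 to 11. The mitochondrial and peroxisomal medians ranged from 0.35 to 0.43 and 0.26 to 0.35 (TKO against WT on HFD), 0.02 to 0.14 and -0.08 to -0.02 (on ND), -0.15 to -0.03 and -0.01 to 0.07 (HFD against ND in TKO), -0.32 to -0.24 and -0.23 to -0.15 (in WT), 0.19 to 0.35 and 0.1 to 0.23 (interaction), and 0.04 to 0.16 and -0.02 to 0.06 (HFD TKO against ND WT). Interaction counts were 10 to 17 positive, and 7 to 12 members were lower in HFD TKO than in ND WT. Whether the shared replicate numbers pair the libraries could not be settled from deviations within groups of 3. Of 18 pairs with the same number, 5 had a correlation of deviations above 0.1 (-0.497 to 0.562). Those between HFD TKO and ND TKO were 0.392, 0.562 and 0.123. Those between HFD WT and ND WT were -0.36, -0.021 and -0.207. With the replicate block, 2 members were lower in TKO on HFD, 12 interactions were positive, and the other calls that changed were those of Pdk4 on ND (adjusted p = 0.0452) and Etfa in the interaction (0.0579). Over all tested genes, counts on HFD became 3612 higher with edgeR and 3608 with DESeq2 (2365 in the report). On ND, 337 higher and 552 lower became 525 higher with TMM scaling, 734 higher with DESeq2, 94 and 186 with the compared groups alone, and 1209 and 1563 without both libraries. With HFD in TKO, 2525 higher became 1399 with TMM scaling and 1501 with edgeR, and 921 lower became 1472 with TMM scaling and 1560 with DESeq2. HFD TKO against ND WT gave 1510 lower with the compared groups alone (2345 in the report). The causes were not tested. The fit of compared groups alone was not run for the interaction, which needs all groups. With 3 libraries a group, small changes such as those of Hsd17b4 and Acox3 lie at the limit of these data, and Cpt1b and Acot8 rest on few reads.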
